A study of Mus musculus with 8 samples.

Results

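Plasma cells, the antibody-secreting end stage of the B lineage, were described in sorted cells of mouse small and large intestine. A plasma cell was a barcode with at least 500 detected genes, at most 20% of its unique molecular identifiers (UMIs, each counting 1 captured RNA molecule) from mitochondrial genes, at least 5 UMIs of Mzb1 and at least 50 of Jchain. There were 394 plasma cells among the 28486 deposited barcodes of all 8 libraries, which include Visium spots. The small intestinal library gave 93 of 2756 kept barcodes (3.37%, 95% Clopper-Pearson interval 2.73 to 4.12) and the large intestinal library 301 of 6188 (4.86%, 4.34 to 5.43). Both libraries came from digested intestine, with no treatment labelled. Mice of the C57BL/6 strain and mice carrying Lgr5-eGFP-ires-CreERT2, an allele that drives a green fluorescent protein (GFP) from a stem cell gene, were used for sorting, and the labels did not say which of them, how many animals or which age gave either library. Live cells were pooled with cells sorted for the stem cell protein LGR5 and for the lymphatic endothelial proteins CD31, PDPN and LYVE1, so a share of barcodes describes a sorted pool and not the tissue. The remaining libraries were 1 of small intestinal organoids grown alone, 1 of organoids grown in coculture (both C57BL/6, passage 1), and 2 Visium sections of each tissue (C57BL/6), in which each slide spot collects RNA from the cells above it.

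Only 1 library per tissue was made, so the tissue cannot be told apart from its library, no test between tissues was possible, and values below carry 95% intervals that cover counting error only. The deposited libraries held 78482770 UMIs (small intestine) and 142501907 UMIs (large intestine). The mitochondrial limit removed 5497 of 8842 small and 2060 of 8646 large intestinal barcodes, and 1 and 2 of those would otherwise have passed the marker thresholds. The libraries shared 25 barcodes, and 0 of them were plasma cells. Levels are given in CPM, the UMIs of a gene per 1000000 UMIs of all genes other than immunoglobulin genes (symbols starting Igh, Igk or Igl), summed over the cells of a group.

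Plasma cells of the gut wall mainly secrete immunoglobulin A (IgA). The J chain, encoded by Jchain, links IgA monomers into dimers, which the epithelial receptor encoded by Pigr carries to the lumen. Secretion at this rate rests on the endoplasmic reticulum (ER), where signal peptides are removed, chains are folded, glycosylated and joined, and misfolded chains are sent for degradation. The unfolded protein response, run by the sensors encoded by Ern1, Atf6 and Eif2ak3 and the transcription factor encoded by Xbp1, sets the size of that machinery. Precursors are drawn to the gut by the chemokine receptors CCR9 and CCR10 and the integrin made of the products of Itga4 and Itgb7.

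A target sequence of the unfolded protein response is the ER stress element, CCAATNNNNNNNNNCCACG, which was searched on both strands from 250 bases before to 50 bases after each start site. It was found in promoters of 7 of 22 matched ER folding genes (31.8%) and of 2 of 16 matched genes for the unfolded protein response and ER degradation (12.5%). Among all 27025 genes with a promoter in the RefSeq table (build GRCm38.p6), 37 held it (0.137%). None of the matched genes for ER import (16), N-glycosylation (18) or ER to Golgi traffic (17) did. Printed here are the 3 of these 9 promoters whose genes had the highest plasma cell ratio (defined further on), Derl3 (chr10:75893148-75893447, plus strand), Creld2 (chr15:88819396-88819695, plus strand) and Hsp90b1 (chr10:86705395-86705694, minus strand), and that of Hspa5 (chr2:34771840-34772139, plus strand), the gene for the main ER chaperone. Capitals mark the element or its reverse complement.
Derl3: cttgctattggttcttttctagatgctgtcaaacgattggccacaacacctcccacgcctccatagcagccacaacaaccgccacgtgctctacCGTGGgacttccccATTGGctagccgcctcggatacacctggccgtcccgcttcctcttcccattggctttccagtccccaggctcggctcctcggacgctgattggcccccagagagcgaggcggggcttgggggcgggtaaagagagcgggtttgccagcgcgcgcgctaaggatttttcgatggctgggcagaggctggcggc
Creld2: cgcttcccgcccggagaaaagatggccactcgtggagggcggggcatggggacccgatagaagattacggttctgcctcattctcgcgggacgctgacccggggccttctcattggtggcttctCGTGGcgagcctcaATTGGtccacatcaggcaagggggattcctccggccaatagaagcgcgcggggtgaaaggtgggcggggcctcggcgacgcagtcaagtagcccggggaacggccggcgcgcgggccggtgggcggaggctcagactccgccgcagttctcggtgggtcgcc
Hsp90b1: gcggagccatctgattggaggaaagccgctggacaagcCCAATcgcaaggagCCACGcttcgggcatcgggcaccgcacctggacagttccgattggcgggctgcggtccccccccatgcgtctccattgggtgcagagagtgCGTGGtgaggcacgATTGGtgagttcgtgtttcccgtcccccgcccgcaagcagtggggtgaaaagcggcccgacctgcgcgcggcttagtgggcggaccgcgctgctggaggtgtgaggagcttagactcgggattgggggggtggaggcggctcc
Hspa5: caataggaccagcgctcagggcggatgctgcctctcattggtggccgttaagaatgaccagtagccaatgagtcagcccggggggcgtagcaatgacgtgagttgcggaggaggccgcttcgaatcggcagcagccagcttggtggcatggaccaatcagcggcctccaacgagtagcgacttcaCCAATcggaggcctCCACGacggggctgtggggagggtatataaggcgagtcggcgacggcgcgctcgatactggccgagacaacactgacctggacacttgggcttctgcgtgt
The Hsp90b1 promoter held 2 matches, 1 on each strand, and each of the others held 1. A second element, TGACGTGG, whose last bases CGTGG are the reverse complement of CCACG in the first, was found in 2 of the 22 ER folding genes (9.09%, Txndc5 and Txndc11), in 3 of the 17 ER to Golgi traffic genes (17.6%, Sec24d, Kdelr3 and Copb1) and in 193 of all 27025 genes (0.714%). It was also found in 1 of 15 matched genes of the plasma cell identity list (Pou2af1), and in 0 of the ER import, N-glycosylation and unfolded protein response genes. The octamer ATGCAAAT, a motif of immunoglobulin promoters, was found in 1 of the 16 ER import genes (Sec61g), in 0 of the 22 ER folding genes and in 1.97% of all genes. A match is a run of letters in this window, and binding was not measured.

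Jchain and Mzb1 chose the cells, so their levels are given as a description and do not support the label. Jchain ranged from 446 to 3754 UMIs per cell in small intestine (median 1442) and from 60 to 4531 in large intestine (median 1299), against medians of 0 and 2 in the other kept barcodes. Mzb1, the gene of an ER co-chaperone of the B lineage, had medians of 26 and 34 UMIs. Near the Mzb1 threshold, 0 small and 7 large intestinal barcodes had 4 Mzb1 UMIs and enough Jchain (median 1191 Jchain UMIs in large intestine), and 2 and 9 plasma cells had 5 (medians 809 and 655). Below the Jchain threshold, 22 small and 7 large intestinal barcodes passed for Mzb1, with at most 25 and 39 Jchain UMIs. The small intestinal cells were thus well clear of the Jchain threshold, while the lowest large intestinal ones were close to it. Among B cell genes, Ms4a1, which encodes CD20, had 1 UMI in the 93 small and 26 in the 301 large intestinal cells, and Pax5, the B cell identity factor, had 0 and 3. Other B cell genes were detected more widely, such as H2-Ab1, an MHC class II chain, in 87 of 93 and 277 of 301 cells, and Cd79a, described further on.

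Immunoglobulin RNA filled close to 50% of these cells' UMIs. Its share per cell had a median of 58.3% in small intestine (lowest 15.5, highest 74.6) and 48.9% in large intestine (lowest 0.66, highest 73.4), so the ranges overlapped widely. B cells, defined by at least 1 UMI of Ms4a1, at least 2 of Cd79a and values under both plasma thresholds, had medians of 1.31% (n = 243) and 1.51% (n = 113). The plasma cells were 3.37% and 4.86% of kept barcodes, yet held 96.0% and 93.4% of all immunoglobulin UMIs of kept barcodes. Outside immunoglobulin genes the depth was alike, with a median of 10543 UMIs per cell in small and 9850 in large intestine. Medians of 2712 and 2559 genes per cell were detected. Cells with the most other RNA tended to have low immunoglobulin shares in both tissues. Other UMIs are part of the total from which the share is taken, which by itself favours this trend.

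**Figure D1:**
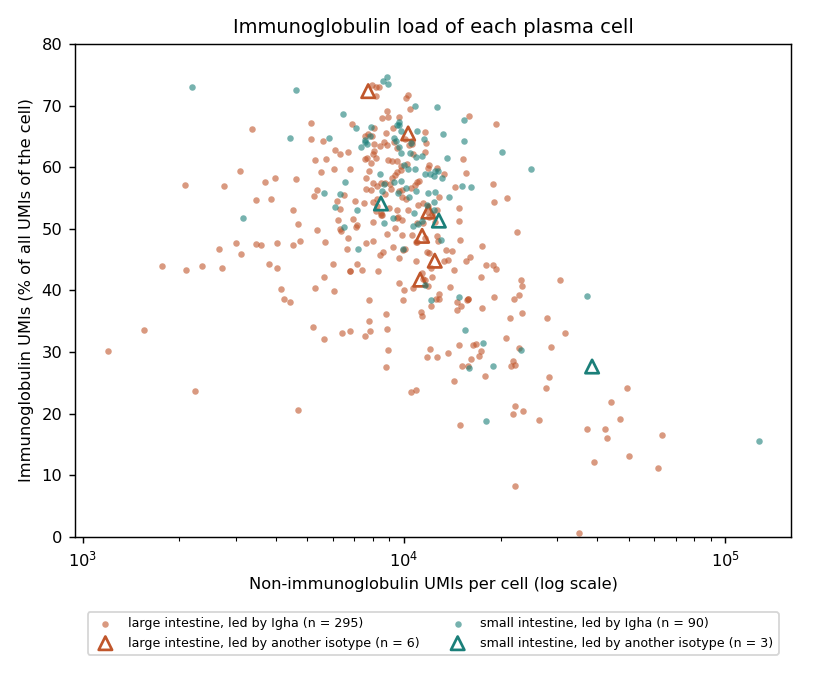
Each point is 1 plasma cell, with its non-immunoglobulin UMIs on a log scale (x) against the percent of its UMIs from immunoglobulin genes (y), coloured by tissue. Triangles are the 3 small and 6 large intestinal cells whose leading heavy chain is not Igha. Medians lie at 58.3% and 48.9%, and 1 large intestinal cell lies at 0.66%.

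Nearly all cells that passed the Jchain and Mzb1 thresholds expressed IgA. Jchain links IgA monomers, so the rule can favour IgA cells, and the shares below hold only for cells chosen by it. Heavy chains of the 22 small and 7 large intestinal barcodes that passed for Mzb1 but not for Jchain are not given. A cell was assigned the heavy chain constant gene that held at least 80% of its UMIs of these genes, and every cell had one. Igha led in 90 of 93 small intestinal cells (96.8%, 90.9 to 99.3) and 295 of 301 large intestinal cells (98.0%, 95.7 to 99.3). The IgA cells were close to pure, with a median of 99.98% and 100% of heavy chain UMIs from Igha and lowest values of 94.2% and 93.3%. Of the other small intestinal cells, 1 was led by Ighm and 2 by Ighg1. In large intestine 4 were led by Ighg1 and 2 by Ighg2b. No cell was led by Ighd, Ighe, Ighg2c or Ighg3.

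The cells with another isotype were few but their transcripts were abundant. The small intestinal Ighm cell held 4043 Ighm UMIs and 11 of Igha. Both Ighg1 cells of small intestine held 2593 and 5157 Ighg1 UMIs with 3 Igha UMIs each. In large intestine, the Ighg1 cells held 2935, 2962, 2983 and 5704 Ighg1 UMIs and between 9 and 53 Igha UMIs, and the Ighg2b cells held 5281 and 5913 Ighg2b UMIs. Other kept barcodes had a median of 3 (small) and 5 (large) Igha UMIs, so a few Igha UMIs per barcode were found in most cells of the libraries. All 9 expressed Ccr10, with 6 to 15 UMIs. They carried 760 or more Jchain UMIs, but Jchain was part of the rule that chose them and does not support the label. When the barcodes with the highest doublet scores were removed, all 6 large intestinal cells of another isotype were among them, and 0 of the 3 in small intestine. The small intestinal Ighm cell nevertheless held 38500 non-immunoglobulin UMIs, against a median of 10543, and 9.58% of them came from markers of other cell classes. The other 8 cells of another isotype had at most 0.55% of such UMIs.

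Kappa light chains led in 85 of 93 small intestinal cells (91.4%, 83.8 to 96.2) and 273 of 301 large intestinal cells (90.7%, 86.8 to 93.7). Lambda led in 7 and 24 cells, and 1 and 4 cells had no leading light chain. Iglc1 had the most UMIs of the lambda constant genes in 5 of 7 and 22 of 24 lambda cells. The intervals of both tissues overlapped for each light chain.

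A plasma cell uses 1 rearranged heavy chain variable (V) gene, so the leading V gene describes the repertoire. A leading heavy chain V gene, with at least 80% of at least 5 V gene UMIs, was found in 82 small and 211 large intestinal cells, with 39 and 49 different leading genes. In large intestine 1 gene was far ahead: Ighv1-76 led in 44 of 211 cells (20.9%, 15.6 to 27.0). In small intestine it led in 0 of 82 cells, which allows a share of up to 3.66% by the limit of 3 counts and 4.40% by the exact interval, and had 0 UMIs in all 93. At least 1 UMI of Ighv1-76 was found in 57 of the 301 large intestinal plasma cells, and in 3 of 113 B cells of that library. The next large intestinal gene, Ighv7-3, led in 15 cells (7.11%, 4.03 to 11.5) against 1 in small intestine. Small intestine was most often led by Ighv1-64, in 7 of 82 cells (8.54%, 3.50 to 16.8), which led in 9 of 211 large intestinal cells (4.27%).

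**Figure D2:**
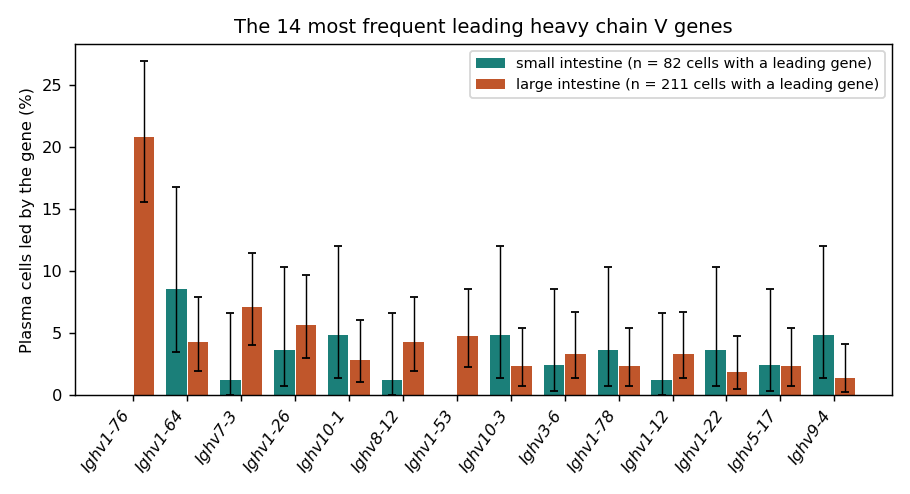
Percent of plasma cells led by each of the 14 most frequent heavy chain V genes, among the 82 small and 211 large intestinal cells with a leading gene. Error bars are 95% Clopper-Pearson intervals, not drawn where the value is 0. Ighv1-76 stands at 20.9% in large intestine and 0 in small intestine.

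The light chains of cells sharing a heavy V gene were counted next. The 34 Ighv1-76 cells with a leading kappa V gene used 13 different ones, among them Igkv5-43 in 7 cells, Igkv4-57-1 in 5 and Igkv5-48 in 5. Of 13 such Ighv7-3 cells, 11 used Igkv12-41. The 7 small intestinal Ighv1-64 cells used 7 different kappa V genes, while 4 of 8 in large intestine used Igkv3-1 and 3 used Igkv12-44. Over all cells with both genes assigned, 91 of 165 large intestinal cells shared their heavy and kappa V pair with another cell (106 pairs), against 8 of 74 in small intestine (70 pairs). A larger set of cells holds more shared pairs, and the numbers of cells differed. The joined sequences were not read, so cells with the same V genes are not shown to be 1 clone, and counts of near-identical V genes can be split by the alignment. Ighv1-76 cells were IgA cells in 42 of 44 cases, and 13 of 44 (29.5%, 16.8 to 45.2) were in cell cycle by the rule below, against 56 of 167 others (33.5%, 26.4 to 41.2).

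No kappa V gene was as frequent in large intestine as Ighv1-76. Igkv12-41 led most often there (15 of 219 cells, 6.85%, 3.88 to 11.0). In small intestine the most frequent kappa gene, Igkv1-110 (9 of 83, 10.8%, 5.08 to 19.6), had a share whose interval overlapped that of the most frequent heavy chain gene. Only kappa genes were used for this count because UMIs of Iglv1, a lambda V gene, were also found in kappa cells (median 30 per cell in small and 10 in large intestine, up to 497 and 284). With lambda genes counted too, only 25 and 110 cells kept a leading light chain V gene. Lambda cells had medians of 61 and 34.5 Iglv1 UMIs.

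Plasma cells were then compared with all other kept barcodes of the same library, where 14 of 17 tested identity genes and 18 of 24 ER folding genes were higher. This comparison is a description, since the rule chose the cells by part of the same RNA. A gene is called higher or lower in plasma cells where it was at least 2-fold different with an interval on the same side of 0 in both tissues. Of 2502 genes with at least 50 plasma cell UMIs in each tissue, 443 were higher (17.7%) and 136 lower (5.44%), and the median over all of them of the smaller log2 ratio was -0.08.

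The highest gene was Ccr10, the receptor for the mucosal chemokine CCL28. Plasma cells of small and large intestine held 656 and 720 CPM of it, against 0.24 and 1.00 CPM in the other barcodes (log2 ratios 11.44 and 9.50). Tnfrsf17, which encodes the survival receptor BCMA for the factor APRIL, followed with log2 ratios of 11.20 and 9.29. Both were found in over 90% of plasma cells of each tissue: Ccr10 in 90 of 93 and 292 of 301, and Tnfrsf17 in 91 and 278. Prg2, known as the eosinophil granule major basic protein, was also among the first (10.83 and 8.33). So were Ly6c2 (8.47 and 8.88), a surface antigen of the Ly6 family, Cacna1s (8.34 and 8.78), a calcium channel subunit best known from muscle, and Derl3 (7.88 and 7.63), which helps move misfolded proteins out of the ER. The other genes of the 20 highest were the agouti gene a, Kcnmb4os2, Glipr1, Eaf2, Kcnmb4, Ly6i, Ctla4, Lax1, Cacna1e, Slamf7, Pou2af1, Irf4, Cd28 and Ly6k. Cd28 and Ctla4, receptors best known from T cells, stood at 175 and 284 CPM and at 125 and 146 CPM. The defining T cell gene Cd3e had 0 UMIs in small and 3 in large intestinal plasma cells.

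Of the 17 tested genes of the plasma cell identity list, 14 were higher. They included Irf4 (6.37 and 7.29) and Prdm1 (5.43 and 5.75), transcription factors that drive plasma cell formation, Xbp1 (4.20 and 3.52), and Sdc1 (4.04 and 3.27), which encodes the surface proteoglycan CD138. The remaining 3 were Cd9 (-0.95 and -1.39), Cd81 (0.69 and 0.54) and Zbtb20 (1.24 and 0.86). Of the 15 listed survival genes, 9 were under the minimum of UMIs and 4 of the 6 tested were higher, which the minimum favours. Among them Tnfrsf13b, the gene of the receptor TACI, had 5.96 and 7.27, and Mcl1, a Bcl2 family protein that plasma cells need, 1.96 and 2.38. Of the 23 listed homing genes, 9 had the minimum of 50 UMIs in both tissues and these 9 were higher. The minimum left out 14 that were scarce in plasma cells of at least 1 tissue, such as Cxcr5 (0 UMIs in both) and Ccr7 (0 and 4), so the count says nothing of the whole list. Values of tested genes included Itgb7 (5.26 and 6.07), Itga4 (3.86 and 5.10), the integrin gene Itgal (6.13 and 6.29) and the retention gene Cd69 (4.67 and 6.36).

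The ER lists differed in how many genes were higher, against 17.7% over all tested genes. Of 24 tested ER folding genes, 18 were higher in both tissues. The disulfide isomerase gene Txndc5 led (4.45 and 3.60), and the chaperone genes Hsp90b1 (2.42 and 2.60) and Hspa5 (1.61 and 1.44) were among them. Canx (-0.52 and 0.01), Pdia3 (-0.12 and -0.16) and P4hb (-0.50 and 0.02), a membrane chaperone and a pair of disulfide isomerases, were not higher. Of 15 genes for the unfolded protein response and ER degradation, 12 were higher, with Derl3, Edem1 (4.42 and 4.59) and Edem2 (4.44 and 3.75), which act on glycans of misfolded proteins, at the head. ER import had 11 of 23 higher, and these included all of Spcs1, Spcs2, Spcs3 and Sec11c, subunits of the signal peptidase (Sec11c 3.44 and 2.37), but not Sec11a (-0.34 and -0.13). N-glycosylation had 4 of 16 higher (25.0%, near the 17.7% over all genes), with St6gal1 (6.34 and 3.22), which adds sialic acid, the highest. ER to Golgi traffic had 6 of 17 (35.3%), led by Lman1 (2.32 and 2.26), a cargo receptor. Over these 5 lists 51 genes were higher, and with scaling by all UMIs, immunoglobulin included, 27 were. Of the 9 genes whose promoter held the ER stress element, Derl3, Creld2 (3.15 and 2.51), Hsp90b1, Syvn1 (2.20 and 2.23), Dnajc3 (2.27 and 1.80), Pdia6 (1.45 and 1.54) and Hspa5 were higher, while Calr (0.75 and 1.01) and Canx were not.

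**Figure D3:**
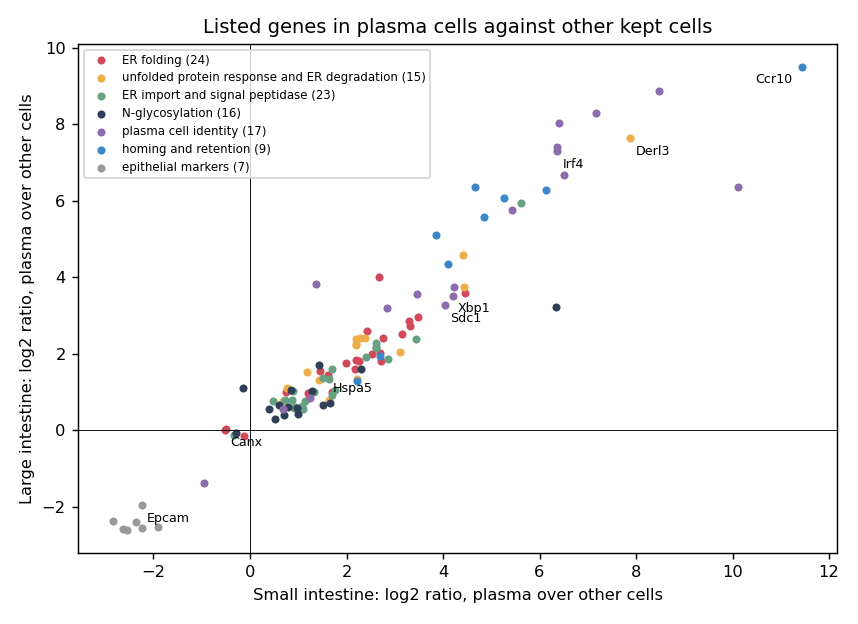
Log2 ratio of plasma cells over other kept barcodes in small intestine (x) and large intestine (y), for the tested genes of 7 lists, with the number of genes of each in the key. Points lie near the diagonal, Ccr10 is at the upper end and the epithelial markers are below 0 in both tissues.

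Some genes of the B cell programme and of antigen presentation were detected. Of the 18 listed genes of the B cell programme, 13 were under the minimum of UMIs and the 5 tested ones were higher than in other barcodes, which the minimum favours. Among them were Cd79a and Cd79b, the signalling chains of the antigen receptor (Cd79a at 866 and 464 CPM). Of 5 tested MHC class II genes Cd74, the invariant chain, was higher (2.38 and 1.21) and the other 4 were not, a share near the 17.7% over all tested genes. H2-Aa, a class II chain, was at 189 and 254 CPM (-0.87 and -1.08). The amino acid list, with 4 of its 10 genes under the minimum, had 2 of 6 higher (33.3%), Slc3a2 (2.33 and 2.68), a transporter subunit, and Phgdh (3.49 and 1.69), the first enzyme of serine synthesis. Il10, an anti-inflammatory cytokine, had 8 UMIs in 6 small and 35 UMIs in 26 large intestinal cells.

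Between tissues, the homing receptor gene Ccr9 was higher in small intestinal plasma cells and 17 of 18 cell cycle genes were higher in large intestinal ones, while at most 1 gene of each ER list passed 2-fold. Tested were 6238 genes, each with 50 or more plasma cell UMIs in at least 1 tissue. Of these, 122 (1.96%) were at least 2-fold higher in small intestine and 608 (9.75%) in large intestine, with intervals clear of 0, 730 (11.7%) in all. A minimum of 50 UMIs is 42.6 CPM in small but 13.8 CPM in large intestine, and with 42.6 CPM in both, 3064 genes gave 103 and 245. The median log2 ratio of small over large was -0.25, and -0.26 for the same genes in the other kept barcodes. Of the calls, 16.7% were higher in small intestine, and 30.9% under median-of-ratios scaling, 26.6% when CPM was averaged over cells and 29.6% with the same CPM minimum. Ratios below are not corrected for the median of -0.25.

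Ccr9 had the highest ratio of the genes named as higher in small intestinal plasma cells at a level not below the other barcodes. It encodes the receptor for CCL25, which the small intestinal epithelium makes. It had 138 UMIs in 60 of 93 small intestinal cells and 20 UMIs in 17 of 301 large intestinal cells, 118 against 5.51 CPM (log2 4.42, 3.73 to 5.17). After each cell was thinned to 2000 non-immunoglobulin UMIs, 23.7% (15.5 to 33.6) and 2.68% (1.17 to 5.22) of plasma cells had a Ccr9 UMI. B cells, at a median depth of 2818 and 2678 against 10543 and 9850 in plasma cells, had one in 0.44% and 0%. T cells, defined by at least 3 Cd3 UMIs and at median depths of 3630 and 3867, had one in 33.3% and 7.02%. Across 18 settings of the processing, the reported one included, the Ccr9 ratio lay between 4.18 and 4.59. The other kept barcodes, which include those T cells, had the same order of tissues, at 5.50 and 0.36 CPM (log2 3.92).

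The other homing genes were not called. Ccr10 was at 656 and 720 CPM (log2 -0.14, -0.25 to -0.02), Itgb7 at 163 and 184 CPM (-0.18, -0.42 to 0.06) and Itga4 at 158 and 205 CPM (-0.37, -0.61 to -0.14). Of 12 tested homing genes, Ccr9 alone passed 2-fold, which is near the share of 11.7% over all tested genes. Gpr15, a receptor for homing to the large intestine, was too scarce to be tested, with 3 UMIs in 3 small and 43 UMIs in 40 large intestinal cells (-2.21, -4.55 to -0.57). Tnfrsf17 (-0.07, -0.21 to 0.07) and Xbp1 (-0.04, -0.10 to 0.02) were close to 0, and the signs of Ccr10, Tnfrsf17 and Xbp1 turned under median-of-ratios scaling (0.04, 0.11 and 0.14) and when cells rich in markers of other classes were left out (0.03, 0.08 and 0.14).

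Slpi, Prg2 and Ly6d were also higher in small intestine. Slpi, which encodes a secreted inhibitor of proteases, stood at 1715 against 371 CPM (2.21, 2.11 to 2.31), with UMIs in 71 of 93 and 138 of 301 cells and a median cell at 690 and 0 CPM. The other barcodes had 5.83 CPM of it in small and 134.5 CPM in large intestine. Prg2 stood at 502 against 109 CPM (2.20, 2.02 to 2.39), in 81 and 174 cells. After thinning, 58.1% and 27.2% of cells had a Slpi UMI and 53.8% and 21.8% a Prg2 UMI, against 0 of 226 thinned small intestinal B cells for either gene. In large intestine 4 of 103 thinned B cells (3.88%, 1.07 to 9.64) had a Slpi UMI and 0 a Prg2 UMI. Ly6d, a surface protein of early B cells, was at 2587 and 885 CPM (1.55, 1.48 to 1.62). It was detected in 83.9% and 56.7% of thinned plasma cells, and in 81.0% and 81.6% of thinned B cells. The remaining genes named by the rule were Ltb (3.16), a lymphotoxin, Ly6k (3.14), the interferon-induced Isg15 (2.79), Rab20 (2.63), Reln (2.45), the mitochondrial leucyl-tRNA synthetase gene Lars2 (2.23) and Cib2 (2.12).

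Some of these rested on few cells. Ly6k had UMIs in 10 of 93 small and 9 of 301 large intestinal cells, and 2 small intestinal cells held 50% or more of its 228 UMIs. Ltb was found in 21 small and 9 large intestinal cells, and 4 held 50% of the small intestinal UMIs. For Isg15, 3 of 93 cells did. By contrast Lars2 was found in all 93 small and 229 of 301 large intestinal cells. Ccr9 (3.92), Reln (2.86), Lars2 (1.83) and Ltb (1.67) were also more than 2-fold higher in the other barcodes of small than of large intestine, and the part of the library in these ratios was not tested. With the cell richest in each gene left out of each tissue, 76 genes were higher in small intestine in place of 122.

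**Figure D4:**
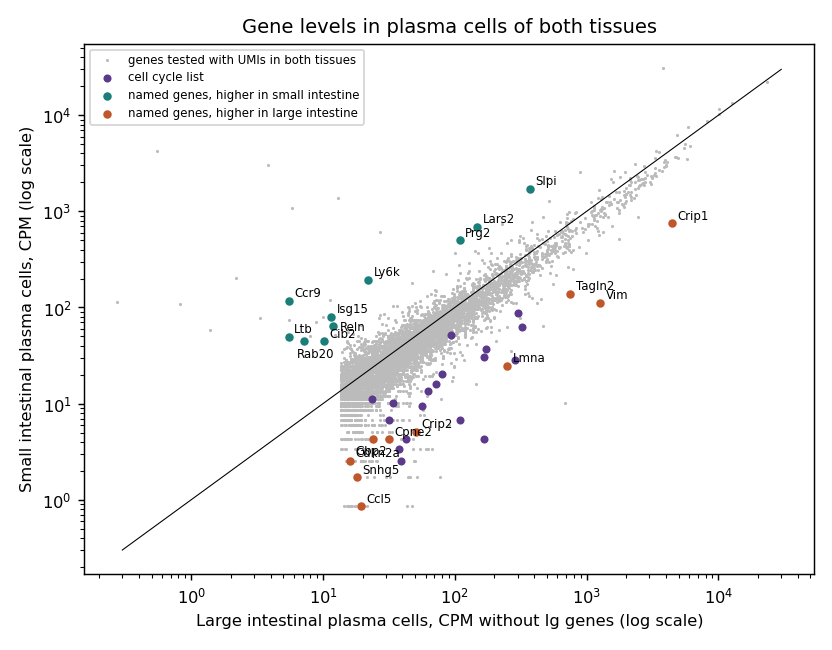
Each dot is a tested gene, with its CPM in large (x) and small (y) intestinal plasma cells on log scales, and the line marks equal levels. Ccr9, Slpi and Prg2 lie above the line, Vim, Lmna, Crip1 and the cell cycle list below it.

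Among genes at least as high in large intestinal plasma cells as in the other barcodes there, the widest ratio was that of Vim, which encodes the intermediate filament vimentin. Its level was 112 CPM in small against 1273 CPM in large intestine (log2 -3.51, -3.77 to -3.26), in 39 of 93 and 248 of 301 cells, with a median cell at 0 and 577 CPM. Crip1, a LIM-domain protein, was at 748 and 4447 CPM (-2.57, -2.67 to -2.47). Its median cell was at 461 and 1408 CPM, and 8 of the 93 small and 25 of the 301 large intestinal cells held 50% of its UMIs. Lmna, the gene of the nuclear lamins A and C, was at 24.7 and 250.4 CPM (-3.34, -3.93 to -2.81). Tagln2, an actin-binding protein, was at 139 and 752 CPM (-2.44), and the others named by the rule were Crip2 (-3.31), the chemokine Ccl5 (-2.92), Cpne2 (-2.88), Snhg5 (-2.83), the cell cycle inhibitor Cdkn2a (-2.64) and Gbp2 (-2.49). From Crip2 to Gbp2, each of these others had at most 6 UMIs in small intestine, so their order is poorly measured. The intervals ran from -6.49 to -1.51 for Snhg5 and from -4.96 to -1.03 for Cdkn2a, for example. In the other kept barcodes Lmna (-1.23), Vim (-1.09) and Cpne2 (-1.08) were also more than 2-fold higher in large intestine.

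In thinned cells, Vim was found in 17.2% of small and 60.4% of large intestinal plasma cells, and Lmna in 5.38% and 29.9%. The same shares in T cells were 24.1% and 52.6% for Vim and 1.85% and 17.5% for Lmna. In B cells they were 21.7% and 26.2% for Vim and 0.88% and 4.85% for Lmna. T cells of these libraries thus showed the same order of tissues for both genes. In plasma cells without the cycle genes described below, Vim was at 149 against 1287 CPM. Ccl5 had 1 UMI in small intestine and 70 in 35 large intestinal cells, and its interval runs from -9.82 to -1.98.

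**Figure D5:**
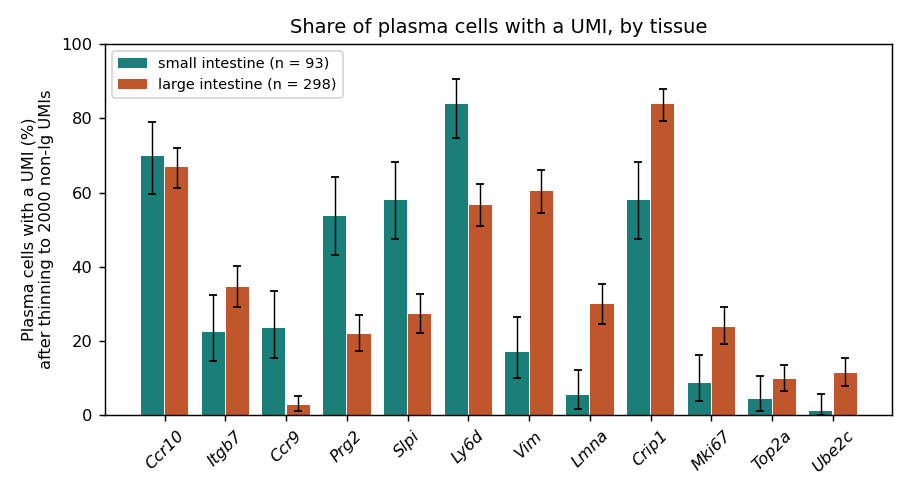
Percent of plasma cells with at least 1 UMI of a gene after thinning to 2000 non-immunoglobulin UMIs, in small (n = 93) and large (n = 298) intestine. Error bars are 95% Clopper-Pearson intervals. Those of Ccr10 overlap, while those of Ccr9, Prg2, Slpi, Ly6d, Vim, Lmna, Crip1 and Mki67 do not.

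Other listed genes mostly did not pass 2-fold. None of the 26 ER folding genes, 23 ER import genes, 20 traffic genes or 17 genes for the unfolded protein response and ER degradation did. In N-glycosylation Stt3b, a catalytic subunit of the oligosaccharyltransferase, passed (-1.03) as 1 of 18. Hsp90b1 was at 3471 and 5795 CPM (-0.74) and Hspa5 at 1484 and 2390 CPM (-0.69), both below 2-fold. In the identity list Ly6k was higher in small and Cd9 in large intestine (63.0 and 188 CPM, -1.58), and 0 of 11 survival genes and 0 of 7 MHC class II genes passed. Over all tested genes 11.7% passed, so a count of 0 in the 11 survival or the 7 MHC class II genes is near the background. Psat1, of serine synthesis, was higher in large intestine (8.52 and 18.5 CPM, -1.12). Of 13 tested genes of the dissociation stress list, which digestion of tissue can induce, 8 passed. The immediate early genes Jun (1.30), Zfp36 (1.38), Ier2 (1.44), Junb (1.29) and Egr1 (1.81) were higher in small intestine. Atf3 (-3.18), also an immediate early gene, and the heat shock genes Hsp90aa1 (-1.68) and Hspa1b (-1.14) were higher in large intestine. Their part in the other tissue ratios was not tested.

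Cell cycle genes were higher in large intestinal plasma cells as a group. Of the 18 genes of the list, 17 passed 2-fold, and the median ratio was -2.30, against -0.25 over all tested genes and -0.94 for the same list in the other kept barcodes. Only Pcna, the sliding clamp of DNA replication, did not (-0.84). Mki67, the standard proliferation marker, stood at 62.2 and 324 CPM (-2.38, -2.74 to -2.04), with UMIs in 34 of 93 and 160 of 301 cells. Top2a, which untangles DNA, stood at 36.6 and 172 CPM (-2.23, -2.71 to -1.78). Of the list, Ube2c and Birc5, genes of mitosis, had the widest ratios, with Ube2c at 4.26 and 165 CPM (-5.28, -6.91 to -4.05) and Birc5 at 6.82 and 109 CPM (interval -5.23 to -3.01). With the same CPM minimum in both tissues or with at least 200 UMIs, 11 list genes were called.

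Counted by cell, 21 of 93 small (22.6%, 14.6 to 32.4) and 113 of 301 large intestinal plasma cells (37.5%, 32.1 to 43.3) had at least 2 of 7 cycle genes (Mki67, Top2a, Birc5, Cdk1, Ccnb1, Ccnb2, Ube2c). After thinning, 3 of 93 (3.23%, 0.67 to 9.14) and 46 of 298 (15.4%, 11.5 to 20.05) did. Thinned B cells had 1.33% and 1.94% and thinned T cells 1.85% and 1.75%. The small intestinal value at this depth lies within counting error of these, and the large intestinal value lies above them. Without thinning, other kept barcodes, which hold the sorted stem cells, had 28.8% and 49.5%, at median depths of 11014 and 22105 non-immunoglobulin UMIs, so no order of tissues is read from these shares. Among cells with at most 2% of UMIs from markers of other cell classes, 18 of 89 and 109 of 295 had at least 2 cycle genes.

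Cells with and without cycle genes differed in immunoglobulin load in large intestine. Those with at least 2 cycle genes had a median of 41.7% immunoglobulin UMIs and 12555 other UMIs, the rest 51.4% and 8556. In small intestine the medians were 56.5% (n = 21) and 58.4% (n = 72). Xbp1 was lower in cycling cells of both tissues, at 1552 against 2810 CPM in small and 2025 against 2860 CPM in large intestine. Sdc1 was at 279 against 500 CPM and at 329 against 438 CPM, and Tnfrsf17 at 399 against 497 CPM and 397 against 580 CPM. Depth moved with this split, and its part was not tested. The small intestinal cycling cells included barcodes with 126972, 38500 and 37043 non-immunoglobulin UMIs. Of these UMIs, 58.3%, 9.58% and 9.11% came from markers of other cell classes. Such barcodes weigh heavily in a summed CPM, and the small intestinal values of Xbp1, Sdc1 and Tnfrsf17 were not computed without them. When all cycling cells were left out, 2 of the cell cycle genes were called, and 144 genes in all for large and 81 for small intestine. Cells were removed here by cycle genes, which by itself lowers the count of that list. Fewer UMIs were also left, so fewer genes can reach the minimum, and the number tested is not given. The part of cycling cells in the tissue calls is therefore not read from these counts.

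RNA of other cell classes was present in the plasma cell barcodes. The 7 epithelial markers tested were all lower than in other barcodes, but Epcam was found in 82.8% and 86.4% of plasma cells before thinning and in 48.4% and 43.3% after it, against 11.9% and 25.2% of thinned B cells. Its level was 357 and 522 CPM in plasma cells and 241 and 1013 CPM in B cells. Paneth cell genes were the widest tissue difference without a condition on other barcodes: Defa24 had 51048 UMIs in small and 0 in large intestinal plasma cells (43487 CPM against 63601 CPM in the other small intestinal barcodes), which gives a log2 ratio of at least 15.38 by the exact interval and 15.68 against a floor of 3 counts over the large intestinal group. A single cell held 47594 of these UMIs, and without it the small intestinal level was 3299 CPM, near the median cell (3159 CPM). All 7 Paneth markers were higher in small intestine. The median plasma cell had 5154 CPM of them, and the median B and T cell, types that do not make them, 6029 and 6877 CPM. In the other direction Retnlb, Sval1, Mptx1 and Car1, epithelial genes of the large intestine, were 374, 371, 692 and 118 CPM in large intestinal plasma cells and 2782, 1197, 6029 and 1146 CPM in the other barcodes there. Without the cell richest in each, the plasma cell levels were 263, 132, 408 and 97.4 CPM.

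Markers of other classes above 2% of non-immunoglobulin UMIs were found in 4 small and 6 large intestinal plasma cells, with medians of 0.77% and 0.34% over all cells and highest values of 58.3% and 15.1%. Over the 9 T cell markers plasma cells had 204 and 299.5 CPM, of which Cd28 made up 175 and 284 CPM. Over the 5 mast cell markers they had 3.41 and 5.23 CPM, with Cpa3, Mcpt1, Mcpt2 and Fcer1a at 0 in both tissues. Over 6 fibroblast markers they had 16.2 and 67.2 CPM, with a median cell at 0 in both tissues and the highest cell at 575 and 13792 CPM. Of these markers, Col3a1 and Dcn were called higher in large intestine. Over 8 myeloid markers they had 443 and 292 CPM, and C1qb, Tyrobp and Lyz2 were higher in small intestine. Leaving out the 10 barcodes above 2% moved the Ccr9 ratio to 4.57 and the Vim ratio to -3.45. No barcode was removed as a doublet. Removing 61 small and 306 large intestinal barcodes with the highest doublet scores took 3 and 29 plasma cells with them and gave a Ccr9 ratio of 4.31 and a Vim ratio of -3.62.

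The Visium sections gave plasma cell RNA from unsorted tissue, with CPM here scaled to all UMIs. The sections of a tissue are technical duplicates, and fewer plasma cells and less RNA per cell cannot be told apart in them. For Jchain, sections of small intestine gave 1009 and 948 CPM and those of large intestine 3235 and 3034 CPM (log2 ratio of means -1.68). Igha was at 5840 and 5848 against 17486 and 16790 CPM (-1.55) and Mzb1 at 16.1 and 16.4 against 76.4 and 74.3 CPM (-2.21). All 3 were lower in both small intestinal sections than in either large intestinal one. Ccr9 went the other way, at 5.34 and 4.59 against 0.97 and 0.62 CPM (2.65), although Ccr10 followed the plasma cell genes (5.38 and 4.45 against 13.2 and 12.7 CPM, -1.40). Cells other than plasma cells, T cells among them, also carry Ccr9, and spots do not separate them.

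Ighg2b, Ighg1 and Iglc1 had the widest ratios of the antibody constant genes measured in the sections, while that of Ighm (7.60 and 10.3 against 33.5 and 23.6 CPM, -1.67) was close to those of Igha and Jchain. Ighg2b was at 7.76 and 10.5 against 277 and 243 CPM (-4.83), with UMIs in 5.40% and 6.34% against 62.1% and 64.5% of spots. Ighg1 was at 2.18 and 2.76 against 38.9 and 31.1 CPM (-3.83), and Iglc1 at 54.2 and 100.7 against 930 and 911 CPM (-3.57). The sorted cells had Ighg2b leading in 2 of 301 large and 0 of 93 small intestinal cells. Ighv1-76, frequent in the sorted large intestinal cells, gave 5 and 4 UMIs in sections of small intestine and 55 and 60 in those of large intestine (0.21 and 0.13 against 1.33 and 1.37 CPM). Ighv7-3 gave 0 and 0 against 35 and 31 UMIs. Ighv1-64, the most frequent heavy chain V gene of the sorted small intestinal cells, gave 1 and 0 against 21 and 26. Igha and Jchain were also lower in the small intestinal sections, so these counts do not give the share of plasma cells using each V gene. Slpi (-2.80) and Prg2 (-1.70), higher in sorted small intestinal plasma cells, were lower in the small intestinal sections, where the UMIs come from all cells of a spot. Prg2 rested on 5 and 10 UMIs in small and 37 and 37 in large intestinal sections. Its ratio was close to that of Jchain (-1.68), so it does not describe the level per plasma cell.

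The organoid libraries, made from sorted epithelial cells, held almost none of this RNA. Mzb1, Igha and Igkc had 0 UMIs in both, and Jchain had 0 UMIs in 818 control and 3 in 1233 cocultured barcodes. The GFP-PLUS feature of the sorted libraries had 0 UMIs in small and 17 in large intestinal plasma cells, against 198 and 1956 in the other kept barcodes.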

How the data were processed

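Single-cell and Visium libraries were deposited as UMI count matrices. Per the submitters' processing notes the single-cell counts came from Cell Ranger 6.0.1 with build mm10, and per the file headers the Visium counts came from Space Ranger 1.2.1; the annotation release is not given in the sources used here. The deposited counts carried no normalization. Of 32287 feature IDs, 32158 were in a reference table of gene names.

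Plasma cells, gene lists and named genes were chosen with earlier results of these data known. Beyond the lists, the rule named the 20 highest plasma cell ratios, the 10 highest and 10 lowest tissue ratios among genes found in at least 10% of plasma cells at a level not below that of other barcodes, 5 each way without that condition, and the 3 most frequent V genes. Counts were summed per tissue and cell class. Intervals were exact (Poisson, Clopper-Pearson, ratio of 2 Poisson counts), and counts under 3 were set to 3 in ratios. No p-value was computed. Cells were thinned to 2000 non-immunoglobulin UMIs with a fixed seed, which left out 3 large intestinal plasma cells. Spots had at least 500 UMIs. Doublets (Scrublet scores in scanpy 1.11.5, 0.8% per 1000 barcodes) were removed only as an alternative, beside other thresholds, scalings, floors and minimum counts and left-out cells or sections. Python 3.11.15, numpy 2.4.6, scipy 1.17.1, pandas 2.3.3 and matplotlib 3.10.9 were used, and the scripts were tested on simulated data.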

Additional observations from a re-analysis of the deposited data

Results flagged for a closer look

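Of 51 genes named by the tissue rule or in 6 of the lists, with at least 50 plasma cell UMIs in each tissue, 4 had plasma cell ratios over the other kept barcodes that lay on opposite sides of 0 in the 2 tissues, with both intervals clear of 0. With 1 library per tissue, none of these differences was tested. Crip1 had a log2 ratio of -1.54 in small and 1.53 in large intestine. Mki67 had -1.49 and 0.63, Tagln2 had -0.94 and 0.54, and H2-Ab1, an MHC class II chain, had 0.40 and -0.34. Ratios to the other barcodes also move with those barcodes, which stood at 2174 and 1542 CPM for Crip1, at 175 and 209 CPM for Mki67 and at 267 and 519 CPM for Tagln2. For H2-Ab1 the plasma cells themselves were at 473 and 474 CPM, and the other barcodes at 359 and 600.2 CPM.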

How the results depend on the processing

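Of the alternative values of the main counts, shares and Visium ratios, 129 stayed close to the reported value and 14 moved; of those of single genes and other shares, 348 stayed close, 80 moved and 2, of genes at least 2-fold apart, changed sign. Close means within 1.5 times for a count, within the 95% interval of the reported value for a share or gene ratio, and within the spread of the sections for a Visium ratio. Ratios of 3 genes under 2-fold, Ccr10, Tnfrsf17 and Xbp1, also changed sign in more than a single setting, reaching at most 0.04, 0.11 and 0.14 (median-of-ratios scaling). With scaling by all UMIs, 233 genes in place of 443 were higher in plasma cells of both tissues, 27 in place of 51 of the ER lists, and 1037 in place of 608 were higher in large intestine. With at least 200 UMIs the tissue counts were 41 higher in small and 181 higher in large intestine, with 11 of the cell cycle list, and with at least 20 UMIs 302 were higher in small intestine. The same CPM minimum, chosen after seeing the data, gave 245 higher in large intestine and 11 of the cell cycle list. Without cycling cells, also chosen after seeing the data, 81, 144 and 2 were called. Fewer UMIs were left in that setting, so fewer genes can reach the minimum. Birc5 (0.20, -3.72 to 2.10) and Top2a (0.35, -0.92 to 1.55) changed sign there, since the setting removes cells by these genes. Without the cell richest in each gene, 76 were higher in small intestine. With doublets removed, 100% of large intestinal cells were led by Igha. Visium ratios without replicate 1 or 2 lay between 2.46 and 2.90 for Ccr9 and between -2.24 and -2.18 for Mzb1.

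No paired analysis was possible because the section numbers mark technical duplicates and the results come from no test. Tissue ratios of single genes rest on 93 small intestinal cells, so genes under 42.6 CPM there are poorly measured, and heavy chain V genes rest on medians of 16 and 13 UMIs per cell.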
